A study of Mus musculus with 14 samples.

Results

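The genes of the cytotoxic granule were followed in RNA of Tregs (regulatory T cells), CD4 cells that hold immune responses in check and depend on the transcription factor Foxp3. Members were the 10 rows of the deposited tables named Gzma, Gzmb, Gzmk, Prf1, Nkg7, Srgn, Ctsw, Klrd1, Cd8a and Cd8b1, out of 22255 genes. The first 8 are genes of cytotoxic lymphocytes, and Cd8a and Cd8b1 serve as a check for RNA of CD8 T cells. All 10 were found. The study compared Tregs between tissues, and Tregs of tumors with and without the fatty acid receptor gene Cd36. All libraries were from mice 8 weeks old, labelled Foxp3-YFP+. KO tumor (3 libraries, numbers 1 to 3) were Tregs that had infiltrated Yumm1.7 melanoma, a transplantable mouse melanoma line, in mice of the strain label CD36floxed FoxP3-YFPCre+/-. WT tumor (3 libraries, numbers 2 to 4) were Tregs from the same melanoma in FoxP3-YFPCre+/+ mice. LN (lymph node, 4 libraries) and spleen (4 libraries) were Tregs of the FoxP3-YFPCre+/+ strain. The Cre recombinase is expressed from the Foxp3 locus, so a floxed gene is lost in Foxp3-expressing cells, and the WT, LN and spleen mice carried the Cre too. The Cd36 genotype and the Cre label (+/- against +/+) differ together between KO and WT tumor and cannot be told apart. Which host the LN and spleen came from, tumor-bearing or not, is not given in the sources used here. Nothing in the labels says that libraries of a group came from different animals, and every p-value therefore measures the spread between these libraries alone, which may be technical.

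A cytotoxic lymphocyte kills by emptying granules at the contact with its target. Perforin opens the target membrane, granzymes, which are serine proteases, enter and start apoptosis, and the proteoglycan serglycin holds both in the granule. Cytotoxic T cells and NK cells are the best known users of this machinery, and Tregs that make granzyme B and perforin have been described in tumors.

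The cells carried the RNA of Tregs. All 6 Treg markers (Foxp3, Il2ra, Cd4, Ikzf2, Ctla4 and Cd3e) reached 1 FPKM (fragments per kilobase of transcript, scaled to library size) in every library, and their summed level was 482 to 566 FPKM in KO tumor, 443 to 549 in WT tumor, 299 to 337 in LN and 312 to 471 in spleen. Foxp3 itself was 42.4, 41.7 and 25.7 FPKM in KO tumor 1 to 3 and 12.0, 3.54 and 12.0 FPKM in WT tumor 2 to 4, against 15.4 to 32.3 in LN and 8.67 to 27.8 in spleen. All KO tumor libraries thus had more Foxp3 RNA than all WT tumor libraries, a difference of 2.01 ± 0.61 on the log2(FPKM + 1) scale that did not pass (limma adjusted p = 0.338), and WT tumor lay wholly below LN. The part of the Treg share in the granule gene levels was not tested. The depth, taken as the smallest at which low values come out as whole reads, was 13.6 to 17.2 M reads (M, mega) in KO tumor libraries, 10.7 to 14.4 M in WT tumor, 18.3 to 21.5 M in LN and 11.5 to 13.8 M in spleen. Cd36 stood at 0, 1.06 and 0 FPKM in KO tumor 1 to 3 and at 0 in all WT tumor libraries, so its deletion could not be read from these libraries. Markers of other cells differed between groups. Of 9 macrophage or monocyte markers the summed level was 247 to 265 FPKM in KO tumor, against 0.993 to 28.6 in WT tumor, and 3.85 to 36.0 in LN, against 226 to 483 in spleen. Without Tyrobp, which also stands on the NK list, the other 8 summed to 87.4 to 155 FPKM in KO tumor, against 0.501 to 22.4 in WT tumor, and to 0.490 to 35.9 in LN, against 94.7 to 273 in spleen. The 7 analysed NK cell markers summed to 174 to 339 FPKM in KO tumor and 0.704 to 91.2 in WT tumor, and to 0.233 to 6.70 in LN and 178 to 444 in spleen. Without Tyrobp and Fcer1g, which myeloid cells share, the sum of the other 5 was 1.24 to 12.2 FPKM in KO tumor, 0.0264 to 7.15 in WT tumor, at most 0.0134 in LN and at most 6.91 in spleen. Ncr1, the receptor that defines NK cells, was at 0 in all KO tumor, WT tumor and LN libraries. Mast cells and neutrophils, which also carry granule proteases or serglycin, left little RNA: mast cell markers summed to at most 0.495 FPKM and neutrophil markers to at most 1.92 FPKM in any library. Markers of plasmacytoid dendritic cells, some of which make granzyme B, summed to 30.8 to 57.9 FPKM in KO tumor and 29.8 to 67.2 in WT tumor, against 6.25 to 15.8 in LN and 27.5 to 69.4 in spleen. In all libraries but LN 4 most of this was Irf8, a transcription factor of several immune cells, while Siglech, their defining receptor, was at most 0.382 FPKM in KO tumor, 5.93 in WT tumor, 10.95 in LN and 8.51 in spleen. The B cell markers Cd79a, Cd79b, Ms4a1 and H2-DMb2 summed to 18.2 to 49.4 FPKM in KO tumor and 6.05 to 96.3 in WT tumor, against 49.2 to 67.5 in LN and 66.9 to 268 in spleen. The part of these cells in the results was not tested. Bulk RNA does not tell fewer cells of a type from less RNA per cell.

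Promoter windows of 300 bases (250 before and 50 after the RefSeq start, GRCm38.p6, gene orientation) were at hand for 7 of the 10 members, with 2 windows for Srgn. They are printed for the 3 members that passed the test in WT tumor and for Gzma and Prf1, their partners in the killing step, so that the letters upstream of each gene can be read beside its levels. The windows lie at chr14:56262285-56262584, minus strand (Gzmb), chr7:43436888-43437187, plus strand (Nkg7), chr10:62527396-62527695 and chr10:62507708-62508007, minus strand (Srgn, windows 1 and 2), chr13:113100932-113101231, minus strand (Gzma), and chr10:61297586-61297885, plus strand (Prf1). Capitals mark matches to 5 short motifs, chosen after the sequences were seen and searched on both strands. They are TGTGGT (Runx factors, ACCACA on the other strand), TGANTCA (AP-1), GGTGTGA (T-box factors), GACGTCA (CRE/ATF) and TTCNNNGAA (STAT). No 2 matches overlap.
Gzmb: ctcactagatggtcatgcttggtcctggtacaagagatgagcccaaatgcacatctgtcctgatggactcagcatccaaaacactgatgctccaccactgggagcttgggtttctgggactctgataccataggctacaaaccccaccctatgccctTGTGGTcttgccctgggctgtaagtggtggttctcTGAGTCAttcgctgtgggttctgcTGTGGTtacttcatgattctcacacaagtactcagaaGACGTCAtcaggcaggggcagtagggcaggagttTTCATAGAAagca
Nkg7: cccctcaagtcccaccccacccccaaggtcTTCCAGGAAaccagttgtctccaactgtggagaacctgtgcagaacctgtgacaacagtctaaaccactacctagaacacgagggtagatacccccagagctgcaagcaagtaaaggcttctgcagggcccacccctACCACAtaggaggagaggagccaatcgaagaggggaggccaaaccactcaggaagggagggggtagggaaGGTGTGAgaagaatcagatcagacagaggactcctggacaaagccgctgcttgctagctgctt
Srgn window 1: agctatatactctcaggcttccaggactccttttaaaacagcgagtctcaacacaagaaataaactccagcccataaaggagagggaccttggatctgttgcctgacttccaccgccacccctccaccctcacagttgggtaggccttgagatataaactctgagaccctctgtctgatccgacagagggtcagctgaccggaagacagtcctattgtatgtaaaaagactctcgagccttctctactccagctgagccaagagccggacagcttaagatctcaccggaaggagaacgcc
Srgn window 2: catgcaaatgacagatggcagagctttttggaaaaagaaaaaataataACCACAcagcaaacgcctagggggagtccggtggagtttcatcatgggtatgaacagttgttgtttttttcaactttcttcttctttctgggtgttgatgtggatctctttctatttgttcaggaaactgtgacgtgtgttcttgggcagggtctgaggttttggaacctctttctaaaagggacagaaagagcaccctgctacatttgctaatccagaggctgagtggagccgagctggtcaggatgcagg
Gzma: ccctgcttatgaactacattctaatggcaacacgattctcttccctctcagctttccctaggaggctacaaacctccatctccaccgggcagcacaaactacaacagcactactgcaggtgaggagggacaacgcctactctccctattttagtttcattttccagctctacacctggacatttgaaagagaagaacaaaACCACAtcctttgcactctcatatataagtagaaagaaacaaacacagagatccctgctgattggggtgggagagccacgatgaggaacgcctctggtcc
Prf1: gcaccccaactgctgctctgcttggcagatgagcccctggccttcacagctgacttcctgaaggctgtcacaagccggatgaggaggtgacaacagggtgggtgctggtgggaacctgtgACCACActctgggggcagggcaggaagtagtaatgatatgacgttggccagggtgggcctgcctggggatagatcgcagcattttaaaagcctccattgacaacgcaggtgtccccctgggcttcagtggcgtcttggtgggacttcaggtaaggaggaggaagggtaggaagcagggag

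Among the 8 windows, the Runx letters stood in those of Gzmb, Gzma, Prf1, Nkg7 and the second of Srgn. Of all 32851 RefSeq windows of this length 16.8% hold them. Gzmb held them at bases 158 to 163 and 217 to 222 of its window, on either side of an AP-1 match at bases 193 to 199, whose letters occur in 7.81% of all windows. The Gzmb window also held the CRE/ATF letters at bases 254 to 260 (3.21% of all windows) and the STAT letters at bases 288 to 296 (8.3%). Nkg7 had the Runx letters on the antisense strand at bases 168 to 173, the T-box letters at bases 238 to 244 (3.98% of all windows) and the STAT letters at bases 31 to 39. Gzma had one Runx match at bases 201 to 206 and Prf1 one at bases 121 to 126. Gzmk, whose window is not printed, held the T-box letters, and none of the 5 motifs was found in the first Srgn window or in that of Cd8a. A match is a description of letters and not evidence of binding.

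**Figure D1:**
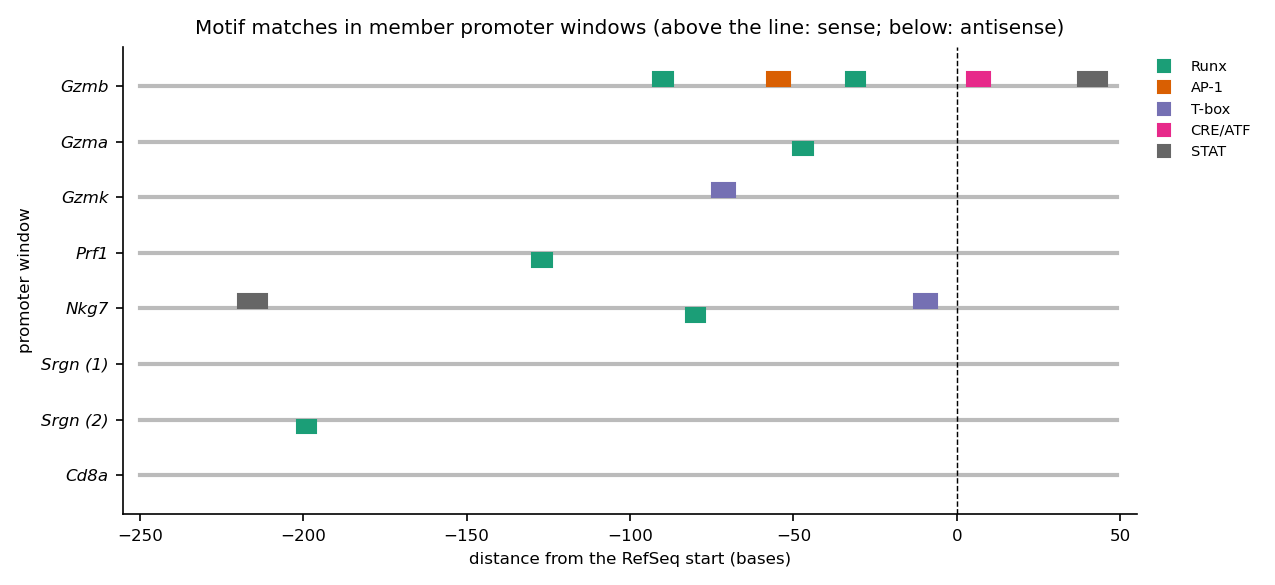
Position of motif matches in 8 promoter windows of 7 members, by distance in bases from the RefSeq start (dashed line); boxes above a line are on the sense strand and boxes below it on the antisense strand. Gzmb has 5 matches, Nkg7 3, and the windows of Srgn (1) and Cd8a none.

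WT tumor Tregs had more RNA of granzyme B, of the granule membrane protein Nkg7 and of serglycin than Tregs of lymph node, while granzyme A and perforin did not pass the test. Between WT tumor and LN 3 of 8 tested members rose and none fell (robust limma-trend on log2(FPKM + 1), Benjamini-Hochberg adjusted p under 0.05), where 1.89% of all 9616 tested genes rose. The 3 were Nkg7, Srgn and Gzmb. The sum of plasmacytoid dendritic cell markers, in WT tumor mostly Irf8, was higher in every WT tumor library than in every LN library too, and Foxp3 was lower. Siglech overlapped between these groups. Between WT tumor and spleen 2 of 8 rose, Gzmb and Nkg7, and none fell, where 1.2% of all tested genes rose. The median difference over all 10 members, on the log2(FPKM + 1) scale, was 1.14 against LN and 1.22 against spleen, and the median over all tested genes was -0.12 and -0.07. Both comparisons share the WT tumor libraries. Gzmk and Klrd1 stayed below the filter (1 FPKM in at least 3 libraries of the fit) and were judged by the exact permutation test alone, whose smallest p is 0.0286 for 3 against 4 libraries.

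**Figure D2:**
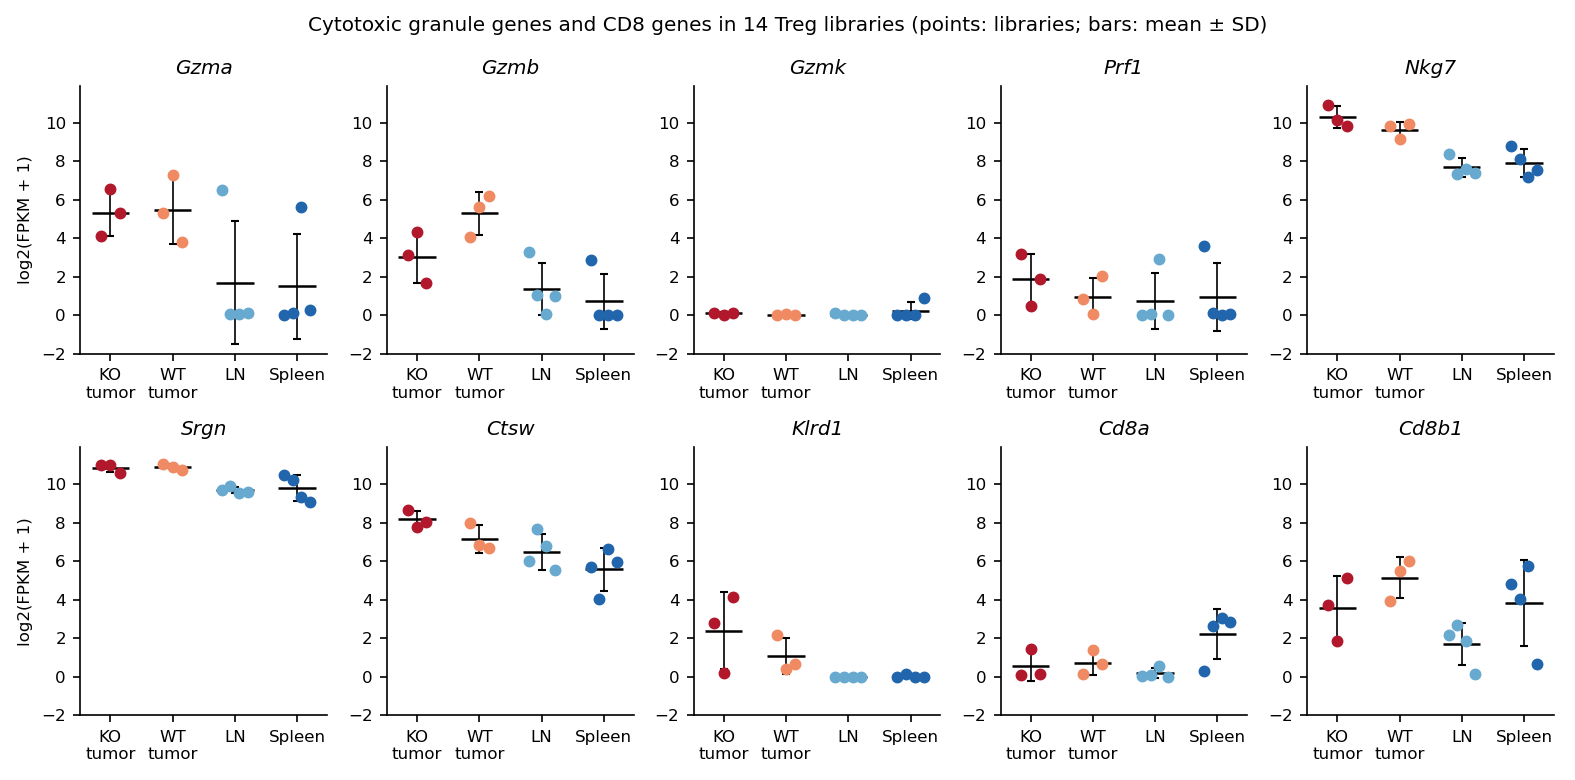
Level of each member, as log2(FPKM + 1), in every library of the 4 groups (points), with the group mean and SD (bars). Srgn and Nkg7 are high in every library and higher in the tumor groups, Gzma, Gzmb and Prf1 range widely within LN and spleen, from 0 or near 0 up to 90.4 FPKM, and Klrd1 is at or near 0 in all LN and spleen libraries.

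Gzmb (ENSMUSG00000015437, chr14:56258838-56262260, minus strand) encodes granzyme B, the protease that cuts after aspartate and activates caspases. Its level was 7.56, 19.0 and 2.14 FPKM in KO tumor 1 to 3, and 15.6, 48.2 and 72.4 FPKM in WT tumor 2 to 4. In LN 1 to 4 it was 8.64, 1.08, 0.0328 and 0.999 FPKM, and in spleen 1 to 4 it was 6.25, 0, 0 and 0 FPKM. All 6 tumor libraries exceeded 1 FPKM, against 3 of the 8 LN and spleen libraries. LN 1 and spleen 1 stood above their groups, at levels that lie inside the KO tumor range but below every WT tumor library. A level of 3 reads would be 0.151 to 0.182 FPKM in the 3 spleen libraries at 0. On the log2(FPKM + 1) scale WT tumor exceeded spleen by 4.57 ± 0.93 (SE) (limma adjusted p = 0.0225) and LN by 3.95 ± 0.93 (limma adjusted p = 0.0344). The exact permutation p was 0.0571 in both. WT tumor did not overlap either group. For KO tumor the difference was 2.31 ± 0.93 against spleen (limma adjusted p = 0.262) and 1.68 ± 0.93 against LN (limma adjusted p = 0.486), and KO tumor overlapped both. By mean level the order was WT tumor (45.4 ± 28.5 FPKM, SD, n = 3), KO tumor (9.58 ± 8.63, n = 3), LN (2.69 ± 3.99, n = 4) and spleen (1.56 ± 3.13, n = 4). Each neighbouring pair in this order overlapped.

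The call of Gzmb did not hold when single libraries were left out. For WT tumor against spleen the limma adjusted p was 0.0552, 0.0579 and 0.0504 without spleen 2, 3 and 4, and 0.0840 and 0.0896 without WT tumor 3 and 4. For WT tumor against LN it was 0.0906, 0.0970 and 0.0857 without LN 2, 3 and 4, and 0.119 and 0.115 without WT tumor 3 and 4. The call against LN did not hold either with a pseudocount of 0.1 (limma adjusted p = 0.136) or 0.5 (0.0557) in place of 1, without the filter (0.0946) or with array weights (0.0504). With every library scaled to the same FPKM total it was lost too (0.0563). The call against spleen was lost with a pseudocount of 0.1 (limma adjusted p = 0.0505), without the filter (0.0778) and with array weights (0.0650).

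Gzma (ENSMUSG00000023132, chr13:113093825-113100981, minus strand) encodes granzyme A, a granule protease of trypsin-like specificity. It stood at 16.4, 91.5 and 38.4 FPKM in KO tumor 1 to 3 and at 38.3, 152 and 12.7 FPKM in WT tumor 2 to 4. In LN 1 to 4 the values were 90.4, 0.0562, 0.0529 and 0.0621 FPKM, and in spleen 1 to 4 they were 0, 0.0926, 47.5 and 0.198 FPKM. Gzma was thus at 12.7 FPKM or more in all tumor libraries and in LN 1 and spleen 3, and below the level of 3 reads (0.140 to 0.262 FPKM) in the other 6 LN and spleen libraries. The log2(FPKM + 1) difference for WT tumor was 3.95 ± 1.67 against spleen (limma adjusted p = 0.300, exact permutation p = 0.114) and 3.76 ± 1.67 against LN (limma adjusted p = 0.292, exact permutation p = 0.114). Without LN 1 the difference against LN was 5.37 for WT tumor (limma adjusted p = 0.0633) and 5.24 for KO tumor (limma adjusted p = 0.0450), and with LN 1 kept KO tumor against LN gave 3.63 (limma adjusted p = 0.321). Without spleen 3 the difference against spleen was 5.32 for WT tumor (limma adjusted p = 0.129) and 5.19 for KO tumor (limma adjusted p = 0.0783). Over the 24 other settings of KO tumor against LN the limma adjusted p ran from 0.0450 to 0.601. Of the LN and spleen libraries only LN 1 and spleen 3 reached 1 FPKM. Gzma thus entered these fits only through the tumor groups, and its differences are a description.

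Gzmk (ENSMUSG00000042385, chr13:113171608-113225908, minus strand), the granzyme K gene beside Gzma, was at or near 0 in every group. It reached at most 0.0873 FPKM in KO tumor, 0.0545 in WT tumor and 0.0688 in LN, all below the level of 3 reads in those libraries, and 0.830 FPKM in spleen 4, the one library above it. The other granzymes were hardly seen either. Gzmd, Gzme, Gzmg and Gzmn were listed at 0 in all 14 libraries, and Gzmf was at 0 in all but WT tumor 4 (0.153 FPKM). Gzmm, a granzyme of NK cells, was at 0 in all 6 tumor libraries, while LN 2 had 30.6 FPKM, LN 1 3.28, spleen 3 3.44 and spleen 4 7.71 FPKM; it passed in no comparison (limma adjusted p = 0.479 for WT tumor against LN). Gzmc was not analysed here. How the authors' counting treated reads shared between granzyme genes of similar sequence is not given in the sources used here.

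Prf1 (ENSMUSG00000037202, chr10:61297833-61304680, plus strand) encodes perforin, the pore that lets granzymes into the target. It was found at 7.95, 0.395 and 2.72 FPKM in KO tumor 1 to 3 and 0.771, 0.0362 and 3.01 FPKM in WT tumor 2 to 4. The LN libraries 1 to 4 had 0, 0.0240, 6.61 and 0 FPKM, and spleen 1 to 4 had 11.2, 0.0792, 0 and 0.0424 FPKM. The highest value of all was in spleen, and the groups overlapped in every comparison. The log2(FPKM + 1) difference for WT tumor was 0.02 ± 0.97 against spleen (limma adjusted p = 0.998) and 0.22 ± 0.97 against LN (limma adjusted p = 0.947). For KO tumor against LN it was 1.11 (exact permutation p = 0.286). LN 3, the LN library with perforin RNA, had 0.0529 FPKM of Gzma and 0.0328 of Gzmb, and WT tumor 3, with the most Gzma, had 0.0362 FPKM of Prf1. Spleen 1, with the most perforin RNA of all, was the one spleen library with Gzmb RNA (6.25 FPKM). WT tumor 4 had the most Prf1 and the most Gzmb of its group. In KO tumor and in LN the library with the most Prf1 was not the one with the most Gzmb. High granzyme and high perforin levels thus fell together in some libraries and apart in others.

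Nkg7 (ENSMUSG00000004612, chr7:43437073-43438249, plus strand) encodes a granule membrane protein needed for release of the granule content. Its level was 1910.3, 1139 and 907 FPKM in KO tumor 1 to 3, and 896, 571 and 971 FPKM in WT tumor 2 to 4. In LN 1 to 4 it was 330.1, 158, 191 and 166 FPKM, and in spleen 1 to 4 it was 445, 276, 144 and 183 FPKM. No tumor library overlapped an LN or spleen library. WT tumor exceeded LN by 1.97 ± 0.37 on the log2(FPKM + 1) scale (limma adjusted p = 0.00889, exact permutation p = 0.0286), a call that held in all 22 other settings tried (limma adjusted p between 0.00147 and 0.0475). Against spleen it was 1.73 ± 0.37 (limma adjusted p = 0.0271, exact permutation p = 0.0571), and the call did not hold without spleen 3 or 4 (limma adjusted p = 0.0674 and 0.0660) or without WT tumor 2 or 4 (0.0959 and 0.101). That call was also lost without the filter (limma adjusted p = 0.105), with only the 2 groups compared (0.0592) and with array weights (0.0655). KO tumor exceeded LN by 2.63 ± 0.37 (limma adjusted p = 0.000610) and spleen by 2.39 ± 0.37 (limma adjusted p = 0.00159), and both held in all 24 other settings. Mean levels ran in the order KO tumor (1319 ± 525 FPKM, SD, n = 3), WT tumor (813 ± 213, n = 3), spleen (262 ± 134, n = 4) and LN (212 ± 80.3, n = 4); KO and WT tumor overlapped, as did spleen and LN.

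Srgn (ENSMUSG00000020077, chr10:62493833-62527451, minus strand) encodes serglycin, the proteoglycan core of the granule. It had the highest mean FPKM of the members in every group. KO tumor 1 to 3 had 2026, 2051 and 1535 FPKM and WT tumor 2 to 4 had 2133, 1893 and 1694 FPKM. LN 1 to 4 had 833, 941, 742 and 759.8 FPKM, and spleen 1 to 4 had 1420.4, 1197, 651 and 537 FPKM. The tumor libraries lay above all LN and spleen libraries, and spleen spread more widely than LN. For WT tumor against LN the log2(FPKM + 1) difference was 1.22 ± 0.27 (limma adjusted p = 0.0272, exact permutation p = 0.0286), and against spleen it was 1.11 ± 0.27 (limma adjusted p = 0.0601, exact permutation p = 0.0571). The call against LN did not hold without LN 1, 2, 3 or 4 (limma adjusted p = 0.0604, 0.0503, 0.0761 and 0.0670) or without WT tumor 2 or 3 (0.109 and 0.0870). That against spleen passed without spleen 1 or 2 (limma adjusted p = 0.0177 and 0.0465). KO tumor exceeded LN by 1.18 ± 0.26 (limma adjusted p = 0.0173) and spleen by 1.08 ± 0.26 (limma adjusted p = 0.0346). The first did not hold without LN 3 or KO tumor 1 or 2 (limma adjusted p = 0.0506, 0.0868 and 0.0868), and the second did not hold without spleen 3 or 4 (0.0946 and 0.0742) or KO tumor 1, 2 or 3 (0.139, 0.138 and 0.0559). Without the filter the call against LN was lost for WT tumor (limma adjusted p = 0.105) and KO tumor (0.0646). KO tumor against spleen was lost without the filter (limma adjusted p = 0.112) and with only the 2 groups compared (0.115).

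Ctsw (ENSMUSG00000024910, chr19:5465043-5468507, minus strand) encodes cathepsin W, a cysteine protease of NK cells and cytotoxic T cells. It measured 405, 219 and 262 FPKM in KO tumor 1 to 3 and 249, 113 and 100.2 FPKM in WT tumor 2 to 4. LN 1 to 4 had 62.1, 203, 108 and 45.4 FPKM, and spleen 1 to 4 had 49.8, 15.2, 98.4 and 61.9 FPKM. Every library had Ctsw RNA, and KO tumor was above every LN and spleen library. KO tumor exceeded spleen by 2.59 ± 0.58 on the log2(FPKM + 1) scale (limma adjusted p = 0.0207), which did not hold without KO tumor 1, 2 or 3 (limma adjusted p = 0.112, 0.0513 and 0.0674). Without the filter it did not hold either (limma adjusted p = 0.0768). Against LN the KO tumor difference was 1.67 ± 0.58 (limma adjusted p = 0.164). WT tumor differed from spleen by 1.58 ± 0.61 (limma adjusted p = 0.252), with no overlap, and from LN by 0.66 ± 0.61 (limma adjusted p = 0.649), with overlap.

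Klrd1 (ENSMUSG00000030165, chr6:129591782-129598775, plus strand) encodes CD94, which pairs with NKG2 chains to read the MHC molecule Qa-1. Its level was 5.86, 0.153 and 16.6 FPKM in KO tumor 1 to 3 and 3.47, 0.308 and 0.575 FPKM in WT tumor 2 to 4. All 4 LN libraries and 3 of the spleen libraries were at 0, and spleen 2 had 0.0842 FPKM, about 1 read. The level of 3 reads is 0.152 to 0.178 FPKM in LN. KO tumor 2, at about 2 reads, cannot be told from 0, so the separation of KO tumor from LN and spleen was not established at this depth. By the values as listed neither tumor group overlapped LN or spleen (exact permutation p of 0.0286 in each of the 4 comparisons, the smallest the design allows). Klrd1 reached 1 FPKM in KO tumor 1 and 3 and WT tumor 2 alone, and so entered the fit of all 14 libraries only through the tumor groups. There KO tumor differed from spleen by 2.35 ± 0.71 (limma adjusted p = 0.103) and from LN by 2.37 ± 0.71 (limma adjusted p = 0.0917) on the log2(FPKM + 1) scale. Klrc1, which encodes the NKG2A partner of CD94, was 4.96, 0.818 and 5.55 FPKM in KO tumor 1 to 3 and 3.66, 3.0 and 3.60 FPKM in WT tumor 2 to 4, and at most 0.302 FPKM in any LN or spleen library. It too passed the filter only through tumor libraries, and its values are a description.

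The non-overlap counts put the same values together. WT tumor lay wholly above spleen for 4 of the 8 tested members (Gzmb, Nkg7, Srgn and Ctsw), where 5.73% of all tested genes did. It lay wholly above LN for 4 of the 8 (Gzmb, Nkg7, Srgn and Cd8b1), where 8.02% of all tested genes did. Klrd1, which was not in that fit, lay above both. KO tumor and the lymphoid tissues differ in both tissue and genotype, and these comparisons were added after the data were seen. In them 3 of 9 tested members rose against spleen (Nkg7, Ctsw and Srgn), where 1.64% of all 10147 tested genes rose. Against LN 2 of 9 rose (Nkg7 and Srgn), where 2.11% of all tested genes rose. KO tumor did not overlap spleen for 4 of the 9 tested members, with 7.05% of all tested genes higher in this way, nor LN for 4, with 8.83%. In each case they were Nkg7, Srgn, Ctsw and, with KO tumor 2 below the level of 3 reads, Klrd1. Klrd1, and Gzma, which overlapped, entered that fit only through the tumor groups. The shares over all tested genes are therefore no measure for Klrd1 and Gzma.

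**Figure D3:**
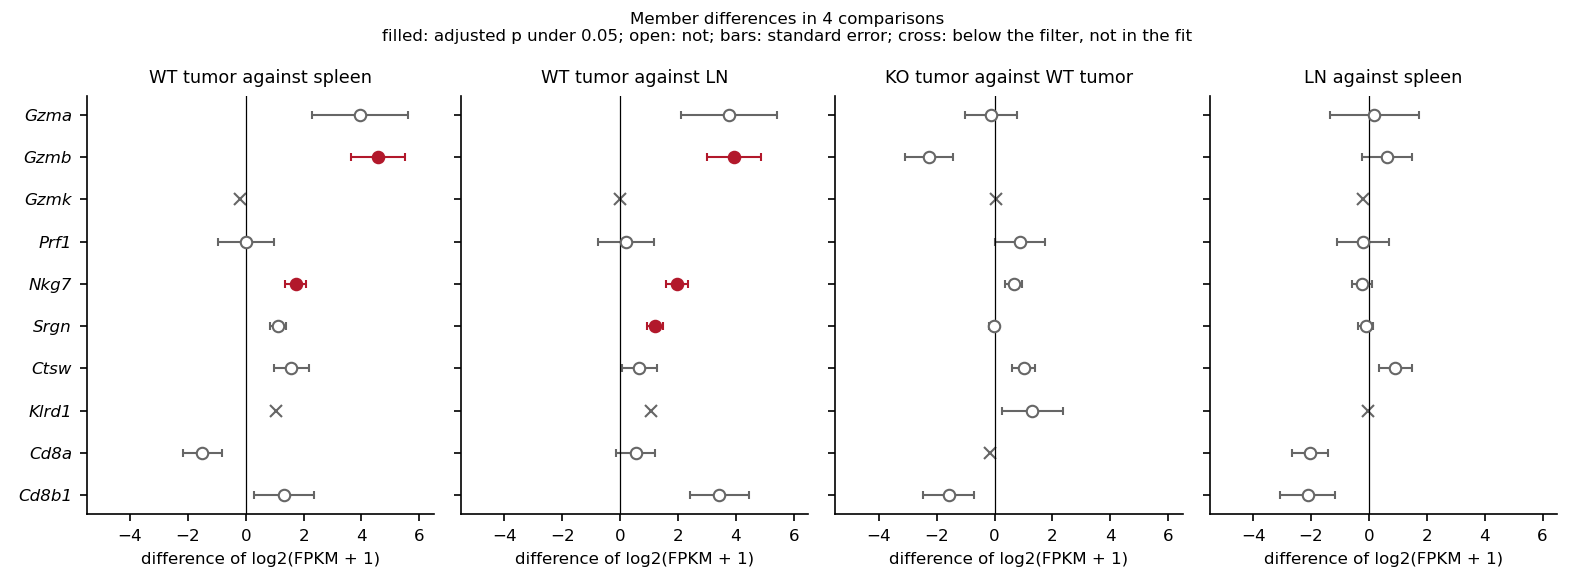
Difference of log2(FPKM + 1), first group minus second, with its standard error, for each member in 4 comparisons; filled points have an adjusted p under 0.05 and crosses mark members below the filter. Gzmb and Nkg7 are filled in WT tumor against spleen, Gzmb, Nkg7 and Srgn in WT tumor against LN, and no member in the other 2 panels.

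No member passed the test between Cd36 KO and WT tumor Tregs. Of 8 tested members 0 rose and 0 fell in KO tumor against WT tumor (limma), 2 had an unadjusted p under 0.05 (Gzmb and Ctsw), and of all 8210 tested genes 0.28% passed and 8.64% had an unadjusted p under 0.05. With 3 against 3 libraries the exact permutation p cannot go below 0.1, and no member reached it, since all 10 overlapped between the groups. Gzmb was 2.27 ± 0.82 lower in KO tumor on the log2(FPKM + 1) scale (difference -2.27, 95% interval -4.12 to -0.41, limma adjusted p = 0.460). KO tumor 2 (19.0 FPKM) exceeded WT tumor 2 (15.6 FPKM), and the other KO tumor libraries lay below all WT tumor libraries. Ctsw was 1.01 ± 0.39 higher (95% interval 0.12 to 1.89, limma adjusted p = 0.507) and Nkg7 0.66 ± 0.30 higher (95% interval -0.0044 to 1.33, limma adjusted p = 0.579). Srgn had the narrowest interval, -0.39 to 0.33 around -0.03 (limma adjusted p = 0.978). Cd8b1, from the check for CD8 T cell RNA, differed by -1.58 ± 0.89 (95% interval -3.58 to 0.42, limma adjusted p = 0.711). The intervals of Gzma (-2.14 to 1.88), Prf1 (-1.06 to 2.84) and Klrd1 (-1.08 to 3.69) allow differences of 1 log2 unit or more in either direction. The summed macrophage markers and Foxp3 were higher in every KO tumor library than in every WT tumor library, as given above, and their part in these values was not tested.

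No member passed between LN and spleen Tregs. Of 8 tested members 0 passed (limma), 2 had an unadjusted p under 0.05 (Cd8a and Cd8b1), the smallest exact permutation p over the 10 was 0.0571 (Cd8a), and of all tested genes 0.499% passed and 10.4% had an unadjusted p under 0.05. Nkg7 differed by -0.24 ± 0.34 (limma adjusted p = 0.882), Srgn by -0.11 ± 0.25 (limma adjusted p = 0.934) and Gzmb by 0.63 ± 0.86 (limma adjusted p = 0.876) on the log2(FPKM + 1) scale, LN minus spleen. All 10 members overlapped between the tissues.

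Cd8a (ENSMUSG00000053977, chr6:71373427-71379173, plus strand) and Cd8b1 (ENSMUSG00000053044, chr6:71322788-71337494, plus strand) encode the chains of the CD8 co-receptor, which in cytotoxic T cells is mostly a pair of both chains. Cd8a was low in tumor: 0.0571, 1.72 and 0.0930 FPKM in KO tumor 1 to 3 and 0.0892, 1.57 and 0.554 FPKM in WT tumor 2 to 4. It was 0.0150, 0.0631, 0.475 and 0 FPKM in LN 1 to 4 and 0.242, 5.22, 7.24 and 6.23 FPKM in spleen 1 to 4. The highest Cd8a levels were thus in spleen 2 to 4, with 0 FPKM of Gzmb. Gzma ran otherwise: spleen 3, with the most Cd8a, had 47.5 FPKM of it, against at most 0.198 in the other spleen libraries, and KO tumor 2 and WT tumor 3, with the most Cd8a of their groups, had the most Gzma of their groups (91.5 and 152 FPKM). Cd8b1 was 12.0, 2.54 and 34.0 FPKM in KO tumor 1 to 3, 14.3, 43.8 and 62.6 FPKM in WT tumor 2 to 4, 3.42, 5.46, 2.54 and 0.110 FPKM in LN 1 to 4, and 27.4, 15.2, 52.6 and 0.587 FPKM in spleen 1 to 4. It exceeded Cd8a in 13 of 14 libraries, and in 5 of the 8 libraries with at least 10 FPKM of Cd8b1 the level of Cd8a was under 1 FPKM. The sum of both genes was 4.25 to 34.1 FPKM in KO tumor, 14.4 to 63.2 in WT tumor, 0.110 to 5.52 in LN and 6.82 to 59.9 in spleen. Within WT tumor Gzmb (15.6, 48.2 and 72.4 FPKM in WT tumor 2 to 4) rose in the same order of libraries as Cd8b1. Within KO tumor Gzmb (7.56, 19.0 and 2.14 FPKM in KO tumor 1 to 3) ran in the opposite order to Cd8b1.

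Cd8b1 stood 3.43 ± 1.03 higher in WT tumor than in LN on the log2(FPKM + 1) scale (limma adjusted p = 0.102, exact permutation p = 0.0286), with no overlap. It passed without spleen 4 in the shared fit (limma adjusted p = 0.0209) and with those 2 groups alone (0.0344). Against spleen it was 1.32 ± 1.03 (limma adjusted p = 0.614) and the groups overlapped. Cd8a differed by -1.50 ± 0.67 between WT tumor and spleen (limma adjusted p = 0.330) and by -1.66 ± 0.65 between KO tumor and spleen (limma adjusted p = 0.244), the second of which passed without spleen 1 (-2.29, limma adjusted p = 0.0414). LN against spleen gave -2.04 ± 0.62 for Cd8a (limma adjusted p = 0.213) and -2.11 ± 0.96 for Cd8b1 (limma adjusted p = 0.474). The summed CD8 levels of WT tumor and spleen overlapped, while Nkg7 and Gzmb were higher in WT tumor. Against LN, the CD8 sum was higher in every WT tumor library, along with Nkg7, Gzmb and Srgn. The part of CD8 T cell RNA in the granule gene levels was not tested.

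**Figure D4:**
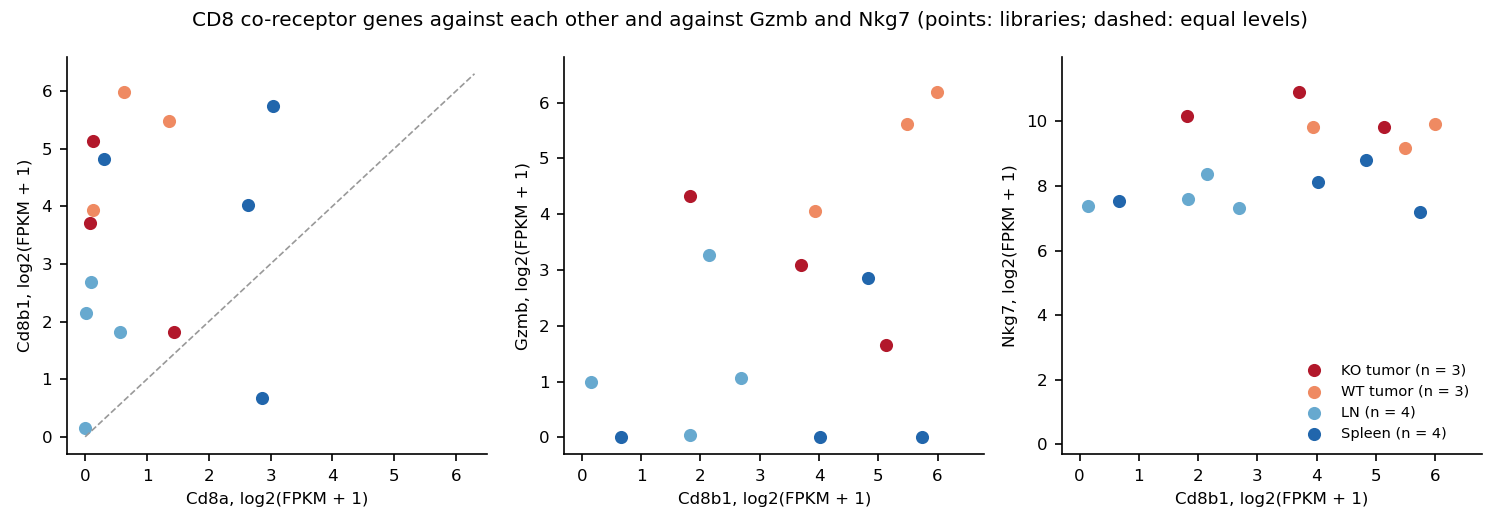
Level of Cd8b1 against Cd8a, of Gzmb against Cd8b1 and of Nkg7 against Cd8b1, all as log2(FPKM + 1), with 1 point per library and the colour giving the group; the dashed line marks equal levels. In 13 of 14 libraries Cd8b1 lies above Cd8a, and spleen 3, with 52.6 FPKM of Cd8b1, has 0 FPKM of Gzmb. Gzmb and Cd8b1 rise in the same order of libraries within WT tumor and in opposite order within KO tumor.

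Genes around the granule were read from 7 lists, without a test between lists. Of 15 tested genes for granule docking and release (such as Unc13d, Rab27a and Vamp8) 0 passed in any of the 6 comparisons (limma), with 1 to 3 at an unadjusted p under 0.05 in each, where 8.64 to 15.6% of all tested genes had one, and the median log2 difference of the list for WT tumor was 0.19 against spleen and 0.50 against LN. Of 7 tested genes that activate or inhibit granzymes, 1 fell in WT tumor against spleen, and against LN 0 passed (limma), with 2 at an unadjusted p under 0.05. Of all tested genes 1.9% passed against spleen in either direction, and against LN 15.6% had an unadjusted p under 0.05. The one that fell was Ctsh, cathepsin H, a convertase of granzyme B in mice (-3.23 ± 0.62, limma adjusted p = 0.0182), which fell as well in LN against spleen (-3.33 ± 0.58, limma adjusted p = 0.0262). Within that fit Ctsh reached 1 FPKM in the 4 spleen libraries alone and passed the filter only through them. Ctsh is also made by macrophages, whose markers had a higher sum in spleen than in WT tumor and LN, as given above. Lyz2, one of these markers, overlapped between spleen and both groups. The part of macrophage RNA in the fall of Ctsh was not tested. Serpina3g, an inhibitor of cysteine proteases, rose in KO tumor against LN (2.13 ± 0.47, limma adjusted p = 0.0174) and was not past the threshold in WT tumor against LN (1.76 ± 0.50, limma adjusted p = 0.0835).

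Of the death ligands and cytotoxic cytokines 2 of 4 tested rose in WT tumor against spleen, where 1.2% of all tested genes rose. Ifng, interferon gamma, was 166, 42.5 and 156 FPKM in WT tumor 2 to 4, against 21.8, 0, 4.92 and 0 FPKM in spleen 1 to 4 (4.94 ± 1.10, limma adjusted p = 0.0351), and Tnf rose by 2.90 ± 0.66 (limma adjusted p = 0.0386). Of the same 4 genes 0 passed in WT tumor against LN (limma), with 2 at an unadjusted p under 0.05, where 15.6% of all tested genes had one. Fasl, the ligand of the death receptor Fas, was 24.6, 19.2 and 6.16 FPKM in KO tumor 1 to 3 and 10.01, 9.83 and 0.322 FPKM in WT tumor 2 to 4, and at most 0.881 FPKM in any LN or spleen library. It passed the filter only through tumor libraries, so no test of it is given. Ifng rose in KO tumor against both tissues (limma adjusted p = 0.00508 against spleen and 0.0268 against LN).

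Of 7 tested transcription factors of cytotoxic genes, 2 rose in WT tumor against spleen and 3 against LN, where 1.2% and 1.89% of all tested genes rose. Bhlhe40, which promotes cytokine production in T cells, was 33.8, 37.1 and 29.1 FPKM in WT tumor 2 to 4 and at most 8.19 FPKM in the LN and spleen libraries (3.14 ± 0.70 against spleen, limma adjusted p = 0.0351, and 4.62 ± 0.70 against LN, limma adjusted p = 0.00208). Id2, an inhibitor of E proteins that favours effector cells, rose by 1.67 ± 0.30 against spleen (limma adjusted p = 0.0117) and 2.49 ± 0.30 against LN (limma adjusted p = 0.000391). Runx3, a Runx factor that drives cytotoxic genes in CD8 T cells, rose against LN (1.85 ± 0.43, limma adjusted p = 0.0319), at 129, 78.4 and 109 FPKM in WT tumor 2 to 4, against 47.0, 23.6, 38.0 and 14.2 FPKM in LN 1 to 4. Eomes, a T-box factor of memory CD8 T cells and NK cells, was at most 0.205 FPKM in any tumor library.

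The list of NK receptors and adaptors also held Ccl5. Of its 6 tested genes 3 rose in WT tumor against LN, where 1.89% of all tested genes rose. They were Ccl5, a chemokine kept in secretory granules (3.08 ± 0.40, limma adjusted p = 0.000645), the inhibitory receptor Klrg1 (3.65 ± 0.61, limma adjusted p = 0.00420) and Klrc1, described above, which passed the filter only through WT tumor. The share over all tested genes is therefore no measure for Klrc1. Against spleen Klrc1 was past the threshold in the same way and Tyrobp fell (-5.53 ± 0.71, limma adjusted p = 0.00187). Tyrobp, the adaptor DAP12 of NK and myeloid receptors, was the one gene of all 7 lists, Treg identity included, to pass in KO tumor against WT tumor (5.08 ± 0.67, limma adjusted p = 0.0158), at 91.8, 177 and 118 FPKM in KO tumor 1 to 3, against 6.11, 3.83 and 0.492 FPKM in WT tumor 2 to 4. Of all tested genes 0.28% passed there. With WT tumor 4 under 1 FPKM, Tyrobp met the filter of that fit only through KO tumor, so its difference is a description. The sum of the macrophage markers other than Tyrobp was higher in every KO tumor library than in every WT tumor library, as given above. Singly, C1qa, C1qb, C1qc, Csf1r and Apoe separated the groups in this way, while Lyz2, Cd68 and Adgre1 overlapped. The part of macrophage RNA in the Tyrobp difference was not tested. In LN against spleen 3 of the 6 fell, namely Tyrobp, Fcer1g and Ccl5, where 0.499% of all tested genes passed in either direction. Fcer1g was under 1 FPKM in every LN library and met the filter for this comparison only through spleen. Its fall is a description, for which that share is no measure.

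**Figure D5:**
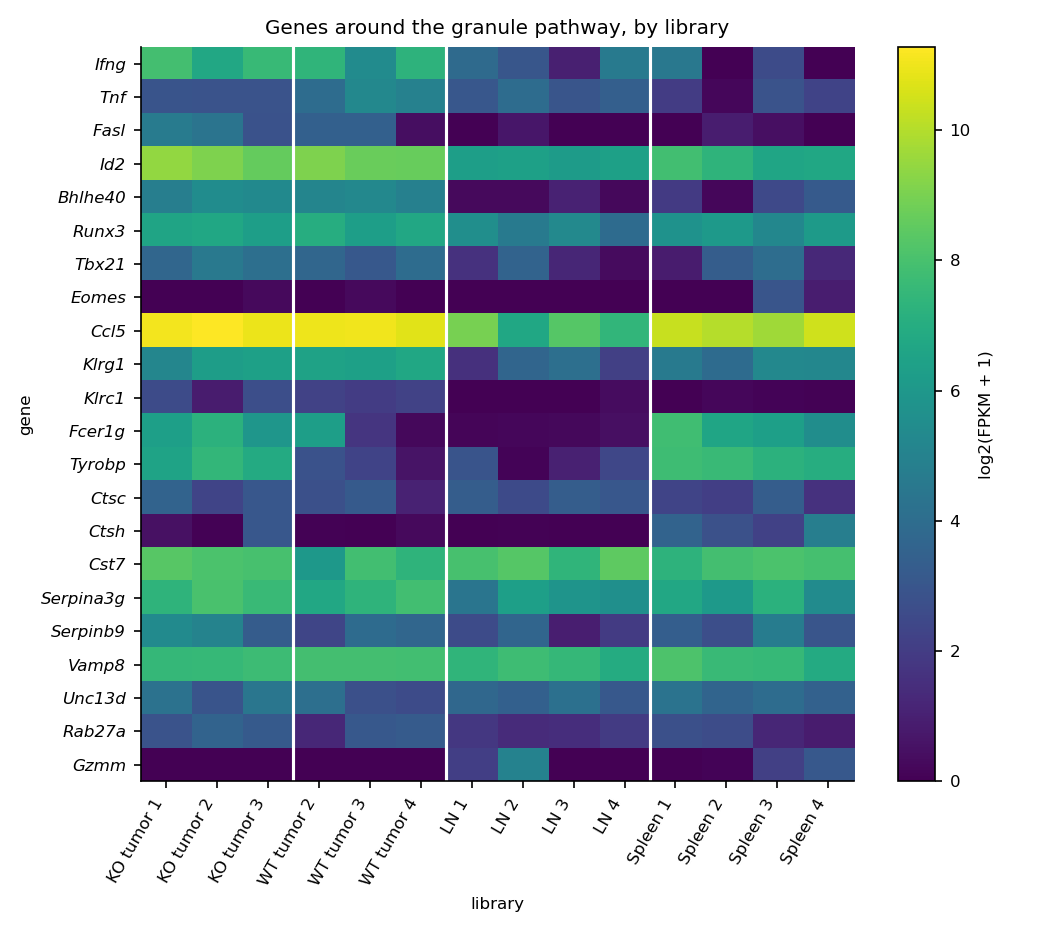
Levels of 22 genes of the lists around the granule pathway in the 14 libraries, as log2(FPKM + 1) by colour, with KO tumor, WT tumor, LN and spleen from left to right. Ifng, Id2, Bhlhe40 and Klrc1 are higher in the tumor libraries than in most of LN and spleen, and Tyrobp is high in KO tumor and spleen.

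The genes whose levels moved most like those of Gzmb and Srgn were looked up by the smallest root mean square difference of log2(FPKM + 1), centred over the 14 libraries, among 4044 genes with a mean of at least 10 FPKM. For Srgn they were AW112010 (0.196), Actg1 (0.272), Tgoln1 (0.299), Bnip3l (0.323) and Fth1 (0.327), beside a root mean square of Srgn itself of 0.663. For Gzmb they were Ifi213 (1.24), Fam46a (1.26), Ifngr1 (1.27), Selplg (1.29) and Klf6 (1.32), beside 2.07 for Gzmb itself, so no gene followed Gzmb as closely as several followed Srgn. These are descriptions over libraries that share groups, and carry no test.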

How the data were processed

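The authors deposited FPKM values per gene for each library, made from Smart-Seq2 libraries of low-input total RNA, per the labels' protocols. Per the submitters' processing notes, the tools were Cufflinks 2.2.1, Cuffdiff, TopHat2 2.1.1, Bowtie2 2.2.9, DESeq2 and Trimmomatic, and the build mm10 (GRCm38). Positions came from GENCODE M21 and promoter windows from RefSeq (GRCm38.p6). The planned count test was not used because the unit is FPKM. Genes with at least 1 FPKM in at least 3 libraries of a fit entered robust limma-trend on log2(FPKM + 1) (limma 3.58.1, R 4.3.3), with Benjamini-Hochberg adjustment over all tested genes. Such differences understate the change of low genes. Spleen, LN and WT tumor shared a fit of 11 libraries, KO and WT tumor had one of 6, and KO tumor against lymphoid tissue was read from all 14. Exact permutation tests were two-sided. The fit was tested on simulated data. Depth was taken from steps of low FPKM values, 92.2 to 96.0% of which were whole reads within 0.1 and 0.4 to 1.9% fell midway between whole reads, where a depth 2 times as high would put every odd count; levels of 3 reads cover counting error only. All 10 members are named, and from each list the genes past the threshold, otherwise the 2 with the smallest p; the text names a part of these. Members and lists were chosen with earlier results of these data known. Alternatives covered the pseudocount, filter, scaling, weights, replicate block and each library left out. Figures were drawn with matplotlib in Python.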

Additional observations from a re-analysis of the deposited data

Results flagged for a closer look

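In LN and spleen, the groups of 4, single libraries stood apart from the other 3 of their group for several members, by Dixon's ratio on log2(FPKM + 1). Gzma reached 47.5 FPKM in spleen 3, and in LN 1 it reached 90.4 FPKM. Gzmb was at 6.25 FPKM in spleen 1. Prf1 reached 11.2 FPKM in spleen 1, and in LN 3 it reached 6.61 FPKM. Cd8a was low in spleen 1, at 0.242 FPKM, and high in LN 3, at 0.475 FPKM. Gzmk stood at 0.830 FPKM in spleen 4, in LN 1 at 0.0688 FPKM, and Klrd1 at 0.0842 FPKM in spleen 2; the last 2 are below the level of 3 reads. Of these 10 groups, 4 (Gzmb, Gzmk and Klrd1 in spleen and Gzmk in LN) had the other 3 libraries at 0, where any value above 0 stands apart and the rate that chance gives, about 1 in 20 groups, does not apply. Some libraries stood apart for several genes: spleen 1 for Gzmb, Prf1 and Cd8a, LN 1 for Gzma and Gzmk, and LN 3 for Prf1 and Cd8a. Spleen 2, 3 and 4 each stood apart for a single gene.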

How the results depend on the processing

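No member difference that passed changed sign in any alternative. For WT tumor against spleen the 183 genes called became 112 without a filter on low values, 87 with only the 2 groups compared, 107 with array weights and 82 to 173 with 1 library left out. The 2 members called there became 1 with a pseudocount of 0.1, 0 without a filter, 1 with only the 2 groups, 0 with array weights and 0 to 3 with 1 library left out. For WT tumor against LN the 292 genes became 183 to 309 with 1 library left out, and the 3 members became 1 without a filter and 1 to 4 with 1 library left out (Gzmb was also lost with pseudocounts of 0.1 and 0.5 and with array weights). For LN against spleen the 48 genes became 16 without a filter and 13 to 56 with 1 library left out. For KO tumor against WT tumor the 23 genes became 0 without a filter (limma; 769 genes then had an unadjusted p under 0.05), 60 with all 14 libraries in 1 fit and 9 to 15 with 1 library left out. For KO tumor the members called became 1 without a filter and 1 to 4 with 1 library left out against spleen (from 3), and 1 without a filter and 1 to 3 against LN (from 2). The cause was not tested.

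Same-numbered libraries did not deviate together (correlations from -0.0276 to 0.0301 over 10147 genes), so the numbers give no pairing. With the replicate number as a block, 89 genes were called for WT tumor against spleen, 186 for WT tumor against LN, 20 for LN against spleen and 6 for KO tumor against WT tumor. Under the block Srgn passed for WT tumor against spleen (adjusted p = 0.0299) and Ctsw did not for KO tumor against spleen (0.0644).

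FPKM totals ran from 492605 to 595391. Scaling every library to the same total moved the median difference of all genes on the log2 scale by -0.10 for WT tumor against spleen, by -0.18 for WT tumor against LN and by 0.15 for KO tumor against WT tumor. The split of higher and lower calls then became 91 and 82, where it was 115 and 68 (WT tumor against spleen), 159 and 210, where it was 182 and 110 (WT tumor against LN), and 27 and 35, where it was 14 and 34 (LN against spleen). Gzmb in WT tumor against LN then had an adjusted p of 0.0563. At these depths levels under 3 reads per library cannot be told from 0. This limits Gzmk, Klrd1, Prf1 and Cd8a, and in LN and spleen also Gzma and Gzmb.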
